A study of Mus musculus with 9 samples.

Results

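Stat5b binding in mouse CD4+ T cells was compared between 8 h and 13 h of Th2 differentiation by chromatin immunoprecipitation and sequencing (ChIP-seq). The comparison takes 4 of the 9 libraries of the study, namely Stat5b at 8 h, Stat5b at 13 h and the IgG control of each stage. The places compared are the peaks of all 6 deposited peak lists (Stat5a and Stat5b at 8 h, 13 h and after 2 rounds), with overlapping peaks joined. That gave 43771 merged regions, of which the 43766 outside the mitochondrial chromosome were used. They covered 24 Mb in the mm8 build of the mouse genome, with a median width of 488 bp.

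All groups are CD4+ T cells of Mus musculus put through Th2 differentiation, with no genotype or strain given in the labels. One group is a chromatin precipitate with an antibody to Stat5b after 8 h, another the same after 13 h, and the other two are precipitates with control IgG after 8 h and after 13 h. The labels point to a publication for the culture conditions and cytokines, which are not given here. Each group is 1 library, so no difference below has a replicate check, and what is compared is these libraries, not the conditions. The cell type was not checked against marker genes, since these are reads of genomic DNA.

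Stat5b is a transcription factor that lies inactive in the cytoplasm, is phosphorylated by Janus kinases when a cytokine such as IL-2 binds its receptor, and then pairs, enters the nucleus and binds DNA. Stat5a is its close relative, encoded by a neighbouring gene, and recognises the same kind of palindromic DNA element. In T helper cells Stat5 is known to act on genes for cytokine receptors, feedback inhibitors of cytokine signalling and survival factors, and it is needed with IL-4 signals for Th2 cells to form. Gene positions in mm8 were not used here, so regions are given by position and not by gene.

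The Stat5b library held 6867047 mapped reads at 8 h and 9036070 at 13 h, and the IgG libraries held 6241015 and 7525521. Levels are therefore given as RPM, the number of read 5′ ends in a region per 1000000 mapped reads of the library, so that 1 read is worth 0.146 RPM in Stat5b at 8 h and 0.111 RPM at 13 h. Of the Stat5b reads, 74.1% had a start and strand of their own at 8 h and 62.7% at 13 h when repeats were counted once, against 68.5% and 68.6% in IgG. Because the more deeply repeated library was that of 13 h, each value was also computed with every start and strand counted once, which is called distinct starts below. Intervals are 95% intervals and cover counting error only, since each group is 1 library. Repeated reads carry no molecular identifiers and may be copies of 1 molecule, so intervals on all reads may be too narrow.

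A few short regions distorted the 8 h libraries and are named before the results. A region counted as heaped if, in any of the 4 libraries, it had 20 reads or more and over 50% of them began at a single position on a single strand. There were 32 such nuclear regions. They took 2.21% of all Stat5b reads at 8 h and 0.0235% at 13 h, and 1.39% and 0.0586% of the IgG reads. A further set of 86 regions had over 10 RPM in IgG, as the mean of both stages. In these IgG-high regions Stat5b was below IgG at both times, at 109 against 122 RPM per kb at 8 h and at 140 against 147 at 13 h. The sums below leave both sets out, which keeps 43648 regions, unless stated otherwise.

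Across those 43648 regions, Stat5b reads were denser at 13 h than at 8 h while IgG reads were not. Stat5b had 1.57 RPM per kb at 8 h and 3.22 at 13 h, a ratio of 2.05 with an interval of 2.04 to 2.06. IgG had 0.875 and 0.886 RPM per kb, a ratio of 1.01 with an interval of 1 to 1.02. Stat5b above IgG, the difference of the 2 densities at each time, was 0.697 RPM per kb at 8 h and 2.34 at 13 h, which is 3.36 ± 0.0199 (counting SE) times as much. With distinct starts the ratio of the excess was 2.87 ± 0.0191. In shares of the library, the regions held 3.77% of Stat5b reads at 8 h and 7.73% at 13 h, and 2.10% and 2.12% of IgG reads.

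An unfiltered sum gave a smaller ratio. Over all 43766 nuclear regions the summed Stat5b ratio was 1.29 with an interval of 1.29 to 1.30, the IgG ratio being 0.709. Leaving out the 32 heaped regions gave 1.96 for Stat5b and 1.05 for IgG.

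The lists that define the regions were partly made from the libraries compared, and joining peaks lets these lists set the borders of a region. The same sums were therefore taken over the peaks of each Stat5a list with that list's own borders, which no Stat5b peak had widened. The Stat5a list after 2 rounds comes from another antibody and another stage, and 9517 of its peaks were neither heaped nor IgG-high. There Stat5b went from 2.70 to 6.54 RPM per kb, a ratio of 2.42 with an interval of 2.40 to 2.44, and IgG from 0.945 to 1.01. The excess over IgG was 1.75 RPM per kb at 8 h and 5.52 at 13 h, 3.15 ± 0.0237 times as much, or 2.66 ± 0.0225 times on distinct starts. In the 5417 peaks of the Stat5a list at 8 h the excess was 3.51 and 9.16 RPM per kb, a ratio of 2.61, and in the 14028 peaks of the Stat5a list at 13 h it was 1.84 and 5.63, a ratio of 3.06. The IgG ratio between the stages was 1.18 in the list of 8 h and 0.878 in that of 13 h, so IgG was lower at the stage of the list in both. The next sums are again over joined regions, whose borders the Stat5b lists helped to set. In the 1140 regions found in all 6 lists, Stat5b had 4.54 RPM per kb at 8 h and 10.4 at 13 h, and the excess ratio was 2.64. The 8420 regions found in Stat5a lists only had little Stat5b at either time, at 0.882 and 1.23 RPM per kb over an IgG of 0.667 and 0.636. This follows in part from the choice, which left out every region with a Stat5b peak at any stage.

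The shape of the signal was looked at around the centres of Stat5a peaks, which no Stat5b library had placed. Around 5417 Stat5a peaks of 8 h, Stat5b within 100 bp of the centre stood at 5.36 RPM per kb at 8 h and 12.3 at 13 h. More than 1000 bp away it stood at 0.829 and 1.39. Both Stat5b libraries had a summit on the Stat5a centres, and the summit above its flanks was 2.42 times as high at 13 h. IgG had a low summit in the same place, 1.20 RPM per kb at 8 h and 1.43 at 13 h. Around 14028 Stat5a peaks of 13 h, Stat5b at the centre was 2.86 and 6.55 RPM per kb and the summit ratio was 2.51. The summit was equally wide at both times, 300 bp at 50% of its height in bins of 50 bp. Stat5b reads of the minus strand lay 104 bp downstream of those of the plus strand at 8 h and 98 bp at 13 h, the distance at which start pairs were most frequent around the Stat5a peaks of 8 h. The IgG distances around the same peaks were 80 bp at 8 h and 69 bp at 13 h.

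**Figure D1:**
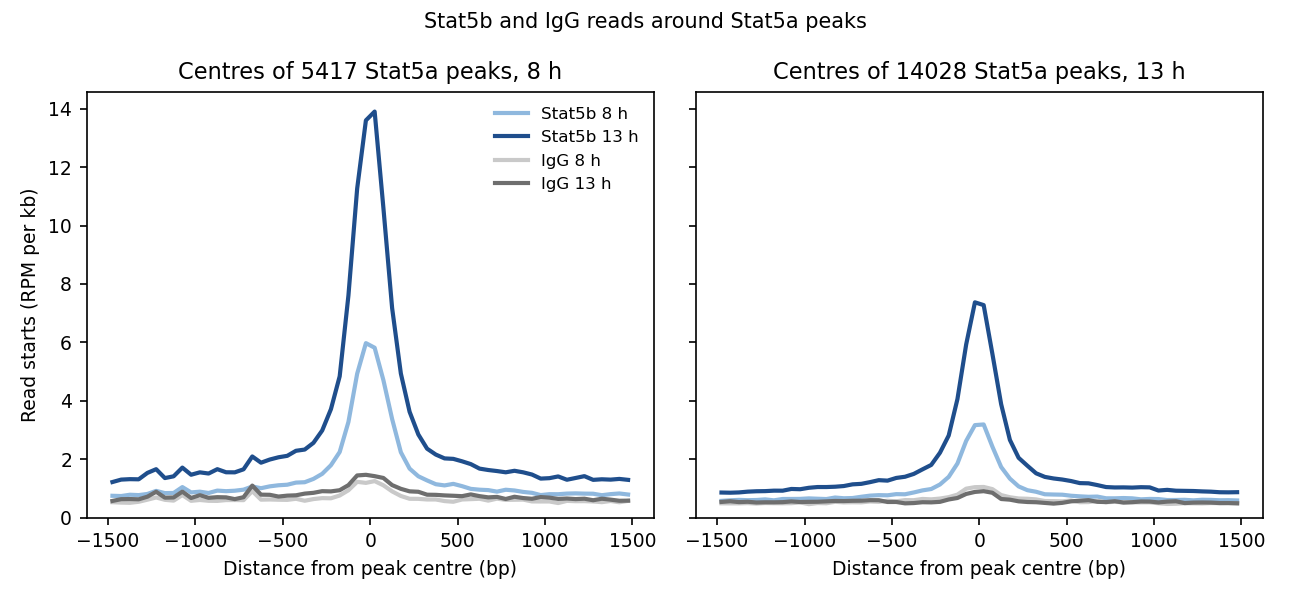
Density of read starts (RPM per kb, in bins of 50 bp) against the distance from the centres of the Stat5a peaks of 8 h (left) and of 13 h (right), 1 line per library. Stat5b at 13 h stands above Stat5b at 8 h at the centres, at 12.3 against 5.36 RPM per kb on the left, and both IgG lines stay low.

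Single regions were then compared by the ratio of their RPM at 13 h to that at 8 h, with its exact conditional (Clopper-Pearson) interval. A region was called higher when the interval lay wholly above 2 and lower when it lay wholly below 0.5. Of 43766 nuclear regions, 2308 were called higher, which is 5.27% (percent of all regions tested), and 133 were called lower, which is 0.304%. With distinct starts 495 were called higher, 1.13%, and 3 lower, 0.00685%. The same rule applied to the IgG libraries called 111 regions higher (0.254%) and 202 lower (0.462%), and 7 (0.0160%) and 30 (0.0685%) on distinct starts. Over the 33847 regions with reads at both times the median log2 ratio of Stat5b was 0.93, a ratio of 1.90, and the middle 50% of regions had ratios of 1.14 to 3.08. With distinct starts the median log2 ratio was 0.84, and for IgG it was -0.27. Both are steps between small whole counts, -0.27 being the value of equal read counts in the 2 IgG libraries. The median region held 2 IgG reads at each time, and the summed IgG ratio without heaped and IgG-high regions was 1.01.

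These calls are relative to the mapped reads of each library. Scaling by the reads outside regions moved the median log2 ratio only to 0.96 and gave 2374 higher calls. Setting the median ratio over regions to 1 takes away the shift of 0.93 common to the regions, and then 153 regions were called higher and 728 lower, so that 17.4% of the calls were higher in place of 94.6%. More Stat5b bound and a precipitate with less background DNA cannot be told apart from 1 library per time.

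How many regions were called depended on their reads. Of the 17660 regions with under 10 Stat5b reads in both libraries together none was called higher and 70 were called lower. The rule cannot call such a region higher but can call it lower, as the 13 h library is the deeper. Of 15985 regions with 10 to 29 reads 6.41% were called higher, of 9005 with 30 to 99 reads 11.3%, and of 1116 with 100 or more reads 23.7%. At low counts a rise of this size was not detectable, so the called regions are not a count of the places that changed. The spread was looked at in the 1024 regions with 100 or more reads that were neither heaped nor IgG-high. These regions were picked by the sum of the counts compared, so their ratios follow in part from the choice. Their median ratio was 2.38, and 1013 had a ratio above 1. The interval lay above 1 in 947 of them and below 1 in 0. The 5th and 95th percentiles of the ratio were 1.34 and 4.55, and 257 of them, 25.1%, were called higher.

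**Figure D2:**
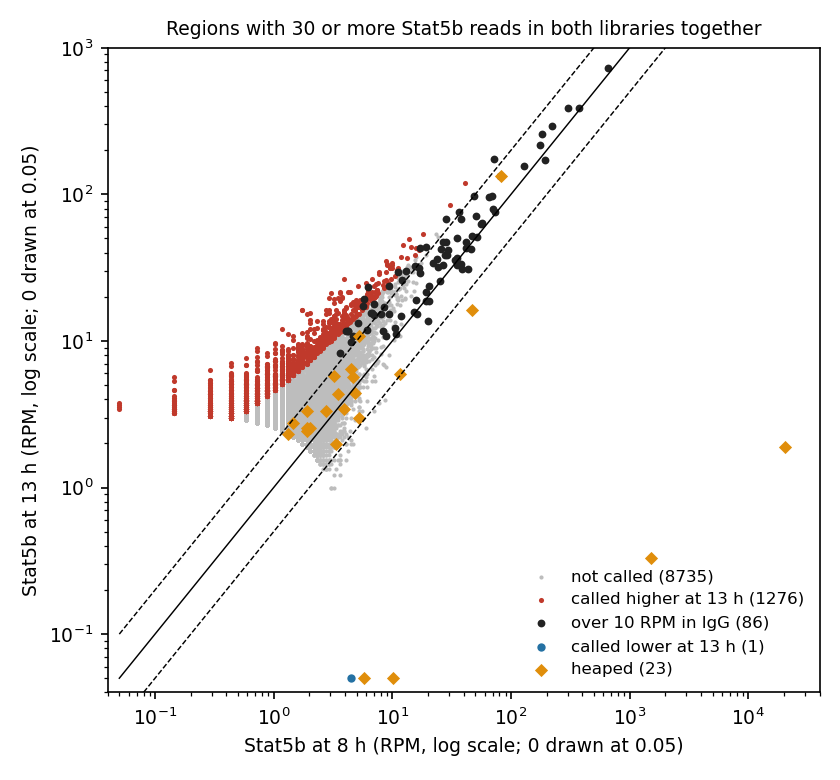
Stat5b RPM at 13 h against 8 h, both on log axes, for the 10121 regions with 30 or more reads in both libraries together, with a solid line at equal level and dashed lines at ratios of 2 and 0.5. Regions called higher (1276 neither heaped nor IgG-high) lie above the upper line, 25 of the 86 black IgG-high regions lie above the upper line and none below the lower one, and the 2 largest heaps lie at the far right with 20420 and 1506 RPM at 8 h.

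The regions called higher had little Stat5b at 8 h, which follows in part from the calling rule. Their median was 3 reads or 0.437 RPM at 8 h and 30 reads or 3.32 RPM at 13 h, with medians of 0.481 and 0.532 RPM in IgG, so the median 8 h level was no higher than that of IgG. Over all nuclear regions the median Stat5b level at 8 h was 0.582 RPM. No read was seen at 8 h in 559 of the 2308, and in 7456 of all 43766. IgG itself was called higher in 13 of them. Stat5a, whose libraries take no part in the Stat5b ratio, had medians of 1.60 RPM at 8 h and 1.68 at 13 h in these regions. Its own 13 h over 8 h ratio was called higher in 13 of them and lower in 27, and over all nuclear regions in 125 (0.286%) and 940 (2.15%), or 3 (0.00685%) and 243 (0.555%) on distinct starts. The Stat5b list of 13 h held 81.1% of them, which follows in part from using the same 13 h reads. Stat5a lists of 8 h or 13 h held 45.3% of them, against 36.4% of all nuclear regions. The 480 regions called higher on both counts of reads had 0.437 and 4.43 RPM, and 59.8% of them were in a Stat5a list of 8 h or 13 h.

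At the calling limit the regions differed little. The 3 nearest inside were chr10:61900386-61902247, with 26 reads at 8 h and 106 at 13 h and a lower limit of 2.0022, and chr1:58666592-58667518 and chr8:113913572-113914790, each with 11 and 56 reads and a lower limit of 2.0055. The 3 nearest outside were chr16:10696111-10697317 and chr16:45224850-45225756, each with 16 and 73 reads, and chr6:99397957-99399453, with 56 and 199 reads and a lower limit of 1.9985.

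Of the 10 regions with the most Stat5b above IgG at 13 h, 4 lay within one stretch of chromosome 9 and 3 on chromosome 16. All 10 were in all 6 lists. The strongest was chr9:107153387-107156833, with 41.1 RPM of Stat5b at 8 h and 119 at 13 h over IgG of 6.09 and 8.37. Its ratio was 2.90 with an interval of 2.54 to 3.32, and 2.42 on distinct starts, so it was called higher on both counts. Stat5a in the same place was 94.6 RPM at 8 h and 87.8 at 13 h. After 2 rounds Stat5b stood at 322 RPM there.

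Its neighbours on chromosome 9 had ratios from 2.10 to 3.56. At chr9:107165101-107168374 Stat5b was 13.8 RPM at 8 h and 49.2 at 13 h, over IgG of 2.56 and 3.32, a ratio of 3.56 with an interval of 2.85 to 4.49. At chr9:107170141-107172446 it was 15.9 and 42.9 RPM, a ratio of 2.71 (2.18 to 3.38). At chr9:107190761-107194586 it was 24.3 and 51.1 RPM, a ratio of 2.10 with an interval of 1.76 to 2.52, and was not called. The intervals of the last and of chr9:107165101-107168374 did not overlap on all reads, but on distinct starts they did, at 1.93 (1.54 to 2.43) and 2.92 (2.24 to 3.83).

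On chromosome 16 the region chr16:23902784-23905036 had 30.6 RPM of Stat5b at 8 h and 84.2 at 13 h, a ratio of 2.75 (2.36 to 3.22), while its IgG was 4.01 and 1.86. The other two on this chromosome were weaker at 8 h. At chr16:10685041-10686553 Stat5b was 14.4 and 43.5 RPM, a ratio of 3.02 (2.41 to 3.80), with IgG at 2.72 and 1.99. At chr16:10552338-10554126 it was 12.4 and 45.0 RPM, a ratio of 3.64 (2.87 to 4.65), but there IgG was higher at 13 h too, 0.801 RPM at 8 h and 4.92 at 13 h. The part of IgG in that ratio was not tested. Stat5b above IgG in that region was 11.6 RPM at 8 h and 40.1 at 13 h.

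Of the remaining 3, chr17:34812280-34813817 had 18.1 and 53.9 RPM, a ratio of 2.98 (2.45 to 3.67), and chr1:60990082-60991533 had 23.4 and 53.3 RPM, a ratio of 2.28 (1.90 to 2.74) that was not called. The last, chr11:3091075-3094543, was IgG-high. It had 80.2 RPM of Stat5b at 8 h and 134 at 13 h over IgG of 53.4 and 55.9, and its ratio of 1.67 (1.51 to 1.85) was the lowest of the 10. Of the 10 regions 7 were called higher on all reads, and on distinct starts 2 were, against 5.27% and 1.13% of all nuclear regions. The 10 were ranked by their 13 h level, so their ratios and calls follow in part from the ranking.

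**Figure D3:**
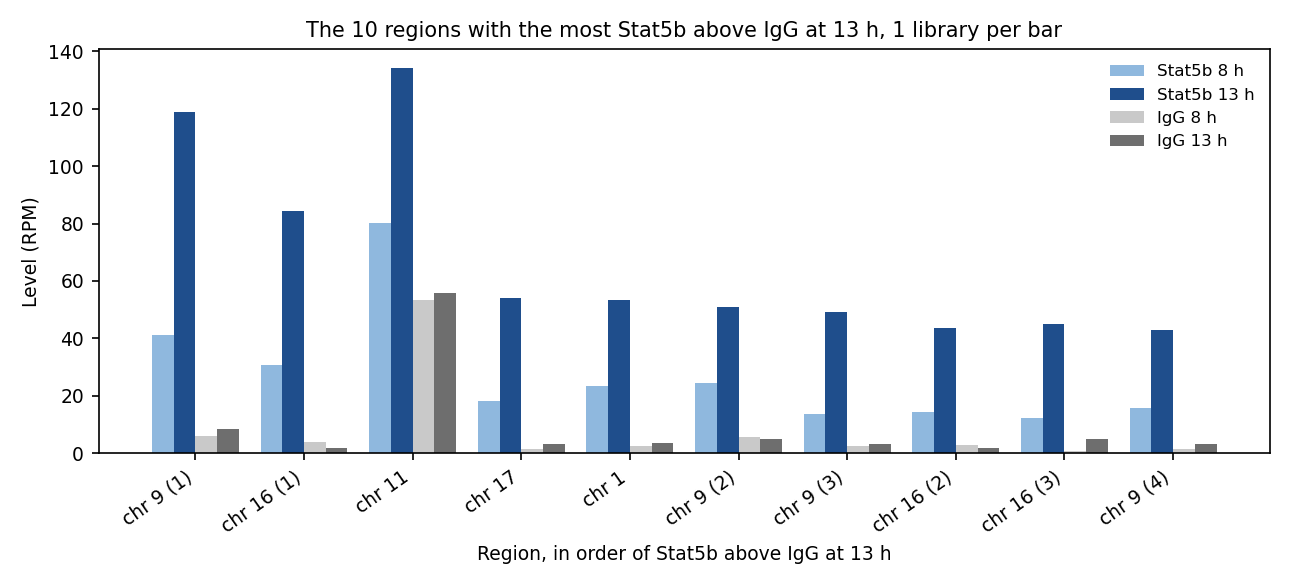
Level (RPM) of the 10 regions with the most Stat5b above IgG at 13 h, named by chromosome and numbered within it, with 1 bar per library (Stat5b at 8 h and 13 h, IgG at 8 h and 13 h). The dark 13 h bar is the taller Stat5b bar in each region, which follows in part from ranking by the 13 h level. IgG is high only in the chromosome 11 region.

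The regions with the largest rises were small peaks almost without reads at 8 h, which follows in part from ranking by the ratio. They were taken from 306 regions called higher on both counts of reads with at least 30 reads at 13 h. At chr15:5430370-5430964 there were 0 reads at 8 h and 34 at 13 h, so with 3 counts standing for the empty library Stat5b was at least 8.61-fold higher. The exact interval, which allows for the error of both counts, began lower, at 6.63 and on distinct starts at 4.19. At chr16:24132039-24132587 there were 0 and 33 reads, at least 8.36-fold by the same floor, with an interval that began at 6.43 (2.97 on distinct starts). At chr5:138401860-138402301 there were 0 and 32 reads, at least 8.11-fold by the floor, with an interval that began at 6.22 (3.22 on distinct starts). IgG there went from 0 to 9 reads as well, and its part in the difference was not tested.

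The other 7 had 1 read at 8 h, so their ratios have wide intervals. The highest was that of chr7:75618243-75619320, 1 read and 51 reads, a ratio of 38.8 with an interval of 6.65 to 1560, with IgG at 0 and 4 reads. A pair of them lay close together, chr9:57825787-57826454 with 1 and 48 reads and chr9:57821265-57821910 with 1 and 38 reads, and both had Stat5b after 2 rounds, at 14.9 and 21.3 RPM. The region chr16:10781981-10782845, with 1 and 36 reads, had 70.4 RPM after 2 rounds, the most of the 10 at that stage. Others were low then, such as chr15:93776626-93776966 with 1 and 42 reads (IgG 0 and 9 reads) and 0.784 RPM after 2 rounds, and chr17:62502148-62502504 with the same reads and 1.04 RPM. Stat5a differed among the 10 as well. It was 4.47 RPM at 8 h in chr15:5430370-5430964, where Stat5b had no read, and 0 in chr5:138401860-138402301.

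Regions strong in Stat5a were ranked by Stat5a and IgG reads alone, although Stat5b peaks had helped to set the borders of the joined regions. Among the 100 regions with the most Stat5a above IgG (mean of 8 h and 13 h), 6 were IgG-high. In the other 94 the median Stat5b level was 11.4 RPM at 8 h and 27.3 at 13 h, with IgG medians of 2.08 and 2.06. The ratio was above 1 in all 94, from 1.45 to 6.76 with a median of 2.32, and the whole interval lay above 1 in each of the 94. Among them 29 were called higher, 10 on distinct starts, and 0 lower, against 5.27% called higher over all regions and 25.1% of the regions with 100 or more reads. The Stat5a ratio of the same 94 regions had a median of 0.679 and was above 1 in 8. The ranking used these same Stat5a libraries, of 3130228 reads at 8 h and 8311042 at 13 h. Its part in the Stat5a ratio was not tested. The median ratios of the 2 antibodies lay on opposite sides of 1, and the difference between them was not tested.

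The largest ratio among the Stat5a-strong regions was at chr13:30645694-30646786. Stat5b there was 3.93 RPM at 8 h and 26.6 at 13 h over IgG of 0.961 and 1.06, a ratio of 6.76 with an interval of 4.53 to 10.5, and 5.11 (3.26 to 8.34) on distinct starts. Its Stat5a was already 18.8 RPM at 8 h and was 14.8 at 13 h. The next were chr16:49693311-49695874 with 8.88 and 35.2 RPM and a ratio of 3.96, chr10:94844625-94848058 with 7.72 and 29.5 RPM and 3.83, chr10:94693929-94696010 with 9.03 and 33.5 RPM and 3.71, and chr2:11087414-11088642 with 9.03 and 33.2 RPM and 3.68. The interval of the first overlapped those of the others, the nearest being 3 to 5.30 at chr16:49693311-49695874. The 5 lowest ratios all belonged to IgG-high regions. They ran from 1.14 at chr9:3027674-3027874 to 1.42 at chr9:3035645-3036662, with IgG ratios of 1.61 and 1.27 in the same regions.

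When the 43648 regions were ordered by their Stat5a level and cut into 10 bins, the Stat5b ratio was above 1 in every bin. It was 1.49 (1.45 to 1.52) in the lowest bin, between 1.81 and 2.02 in the next 8 and 2.24 (2.22 to 2.26) in the highest. IgG ratios stayed between 0.956 and 1.06. The excess over IgG was 0.300 RPM per kb at 8 h and 0.746 at 13 h in the lowest bin, and 1.81 and 5.38 in the highest. As a ratio of the excess the order was different, since the weak bins had almost no excess at 8 h. That ratio was 2.49 ± 0.108 in the lowest bin, 5.34 ± 0.347 in the second and then lower from bin to bin, apart from the fifth, down to 2.97 ± 0.0204 in the highest.

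**Figure D4:**
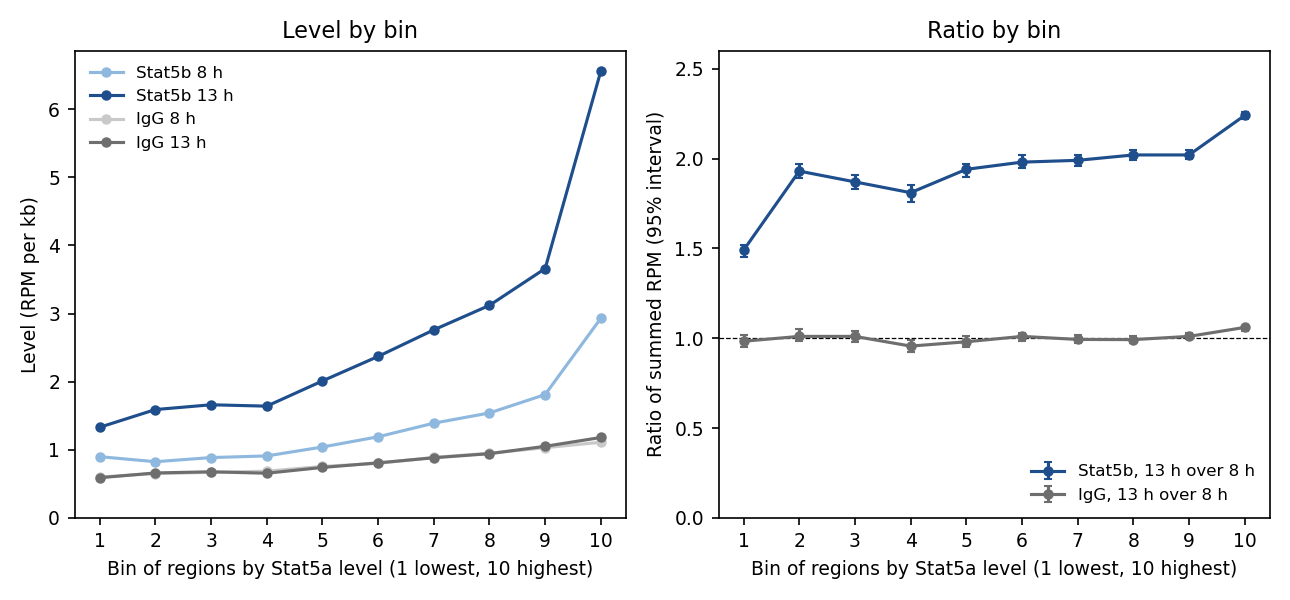
Left, level (RPM per kb) of Stat5b and IgG at 8 h and 13 h in 10 bins of regions ordered by Stat5a level. Right, the ratio of 13 h to 8 h for Stat5b and IgG in the same bins with 95% counting intervals, where Stat5b runs from 1.49 to 2.24 and IgG stays near the dashed line at 1.

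Ordering the regions by their Stat5b level after 2 rounds set one bin apart. In the lowest bin, where no more than 0.131 RPM was left at that stage, Stat5b had 0.990 RPM per kb at 8 h and 1.02 at 13 h, a ratio of 1.03 (0.998 to 1.07). IgG in that bin had a ratio of 0.795 (0.756 to 0.835), so the excess of Stat5b over IgG was 1.38 ± 0.0656 times as large at 13 h. Of the 4365 regions in that bin 72 were called higher and 74 lower, against 2308 and 133 of all 43766 nuclear regions. The regions were drawn from lists that include those of Stat5b at 8 h and 13 h. The part of this in the ratio of the bin was not tested. The other 9 bins had ratios between 1.85 and 2.34 and excess ratios between 3.16 and 3.63. By chromosome the ratio of the summed levels ran from 1.89 on chromosome X to 2.15 on chromosomes 2 and 16, with 3.79% of regions called higher on chromosome X and 5.91% on chromosome 2.

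The deposited peak lists of Stat5b differed in number and in width. After joining, the 8 h list held 3733 nuclear peaks with a median width of 96 bp, and the 13 h list 12769 with a median width of 373 bp. Peaks under 100 bp made up 57.1% of the 8 h list and 0% of the 13 h list. Of the 8 h peaks 68.8% overlapped a 13 h peak, and of the 13 h peaks 16.6% overlapped an 8 h peak. Requiring 50% of both peaks lowered these shares to 2.65% and 0.775%, and the median widths of the lists differ as given above.

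The 8 h peaks were split by their overlap with the 13 h list. Both lists were called from the Stat5b reads compared here, so the Stat5b levels below follow in part from the split. Leaving out heaped and IgG-high ones, 2519 overlapped a 13 h peak. Their reads exceeded IgG 7.81-fold (7.55 to 8.07) at 8 h and 12.5-fold (12.2 to 12.9) at 13 h, and 75.9% of them were also Stat5a peaks at 8 h. The 1109 that overlapped none exceeded IgG 3.30-fold (3.16 to 3.45) at 8 h and 1.32-fold (1.26 to 1.37) at 13 h, and 10.6% were also Stat5a peaks at 8 h. Those 1109 peaks were narrower, 87.0 bp at the median, and held a median of 7 reads at 8 h and 2 at 13 h. Within 200 bp of their centres the mean positions of plus and minus starts at 8 h were 32.8 bp apart, and those of IgG 16.6 bp apart. Around the peaks shared with 13 h the distances were 54.5 bp for Stat5b and 25.1 bp for IgG.

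The 13 h peaks absent from the 8 h list, a set made from the same reads, already had Stat5b above IgG at 8 h when summed. The 10647 such peaks exceeded IgG 1.98-fold (1.95 to 2.01) at 8 h, 2.10-fold on distinct starts, and 7.50-fold (7.41 to 7.59) at 13 h. At 8 h 7.17% of them held no read. The median such peak held 5 reads at 8 h and 20 at 13 h.

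By the Stat5b lists that held them, the merged regions divided as follows, with the reservation that the lists were called from the same reads. The 10043 regions of the 13 h list alone went from 1.74 to 4.72 RPM per kb, an excess ratio of 5.11, with an IgG ratio of 0.874. The 2074 regions of both lists went from 4.19 to 8.84 RPM per kb, an excess ratio of 2.45. The 1031 regions of the 8 h list alone went from 5.59 to 3.81 RPM per kb over IgG of 1.98 and 2.34, an excess ratio of 0.408. The 30500 regions of neither list went from 1.06 to 1.76 RPM per kb, an excess ratio of 3.29. Calls of higher were made in 16.3% of all regions of the 13 h list alone, 11.3% of those of both lists and 1.42% of those of neither.

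**Figure D5:**
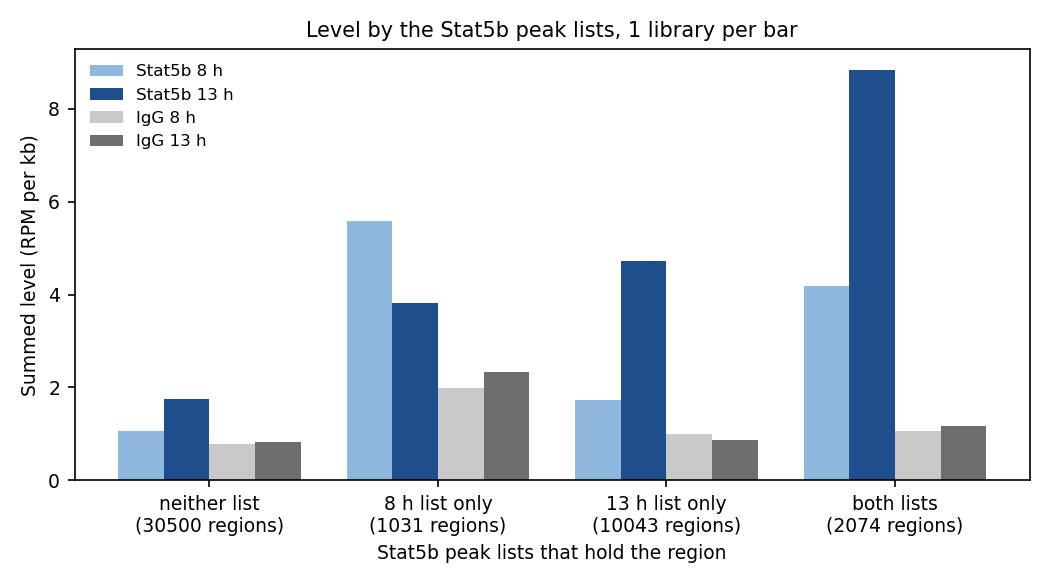
Summed level (RPM per kb) of Stat5b and IgG at 8 h and 13 h in regions grouped by the Stat5b peak lists that hold them, without heaped and IgG-high regions and with the number of regions under each group. Stat5b is lower at 13 h only in the regions of the 8 h list alone, at 5.59 and 3.81 RPM per kb.

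Regions called lower were few and short. Of the 133, 104 were in the Stat5b list of 8 h (78.2%) and 0 in that of 13 h, against 7.32% and 27.8% of all nuclear regions. Of the same 133 regions 114 held no read at 13 h, and their median width was 89.0 bp with a median of 9 reads at 8 h. The list counts and the lack of 13 h reads follow in part from the calling rule, which uses the same Stat5b reads. Stat5a at 8 h had no read in 104 of them. Of all 43766 nuclear regions, with a median width of 488 bp, 13344 held no Stat5a read at 8 h. No Stat5b read at 13 h was seen in 4859 of all regions. On distinct starts 3 were called lower, chr11:17804954-17805003 (heaped), chr11:116397398-116397534 and chr12:5606521-5606572, with 29, 10 and 19 reads at 8 h and none at 13 h. IgG at 8 h stood at 3.69, 0.801 and 2.24 RPM in these and at 0 in each at 13 h.

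Only 6 regions called lower had at least 30 reads at 8 h, and 5 of these were heaped. The largest was chr16:60832722-60832760, 39 bp wide, with 140222 Stat5b reads at 8 h and 17 at 13 h. A single start and strand held 140061 of those reads, 2.04% of the library. IgG had 79057 reads there at 8 h, 3 at 13 h and 62274 after 2 rounds, while Stat5a at 8 h had 14. The same kind of count stood at chr3:107783672-107783710, with 10339 Stat5b reads at 8 h and 3 at 13 h and 6639 and 1 in IgG. The heaps at chr12:32492405-32492501 and chr8:44863188-44863233 went from 69 and 40 reads to 0, again with 22 and 41 IgG reads at 8 h and 0 at 13 h. At chr8:85227637-85227674 Stat5b had 324 and 147 reads, and IgG 82 and 647. The one that was not heaped was chr15:20236959-20237039, with 31 reads at 7 distinct starts at 8 h and 0 at 13 h, and IgG of 11 and 0 reads. In 5 of the 6 IgG was lower at 13 h as well, the heap at chr8:85227637-85227674 being the exception.

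Regions near each other were also summed, to give counts large enough for narrow intervals. Regions found in at least 2 lists were joined where gaps were under 10 kb, and 352 such groups had at least 3 regions and 200 reads. Both the read limit and the lists drew on the Stat5b reads compared, so the ratios below follow in part from this choice. The median ratio of the groups was 2.28, from 1.12 to 5.50. The interval lay above 1 in 350 of the 352, wholly above 2 in 108 and wholly below 2 in 12. On distinct starts the median was 1.99 and the interval lay above 1 in 340 and above 2 in 29. Stat5a over the same groups had a median ratio of 0.743, its interval lying below 1 in 180 and above 1 in 8.

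Groups were ranked by Stat5b above IgG at 13 h, so the ratios of the strongest follow in part from the ranking. The strongest group was chr9:107152367-107172446 with 7 regions, which went from 82.6 to 242 RPM, a ratio of 2.93 (2.67 to 3.22), over IgG of 15.2 and 23.5. Next came chr2:11533859-11581322 with 14 regions, from 80.5 to 192 RPM and a ratio of 2.39 (2.17 to 2.63), and chr1:108412837-108448595 with 9 regions, from 51.6 to 117 RPM and 2.27 (2.01 to 2.57). The interval of the chromosome 9 group lay above those of both on all reads. On distinct starts its ratio of 2.44 (2.18 to 2.73) overlapped that of the chromosome 2 group, 2.21 (1.97 to 2.49), and that of the chromosome 1 group, 1.96 (1.69 to 2.29). Of the 8 strongest groups the smallest ratio was that of chr6:129174277-129203892, from 45.9 to 87.5 RPM, 1.91 (1.67 to 2.18), and Stat5a there went from 114 to 56.1 RPM.

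The largest group ratios came from groups that were weak at 8 h, which follows in part from ranking by the ratio. Stat5b at chr11:53493981-53501236 went from 4.81 to 26.4 RPM, a ratio of 5.50 (3.81 to 8.18) and 4.52 on distinct starts, with IgG at 3.20 and 3.59. At chr11:4726023-4747021 it went from 4.81 to 25.8 RPM, at chr1:132704482-132732644 from 5.10 to 26.1 RPM and at chr15:9810837-9815736 from 4.81 to 24 RPM, with ratios of 5.37, 5.12 and 5. In the chromosome 1 group and the first of these 3, Stat5b at 8 h was below IgG, which was 5.13 and 5.77 RPM. A group with more reads, chr16:90944792-90962888, went from 9.17 to 42.4 RPM, a ratio of 4.62 (3.53 to 6.13).

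At the other end, chr9:61460134-61478218 had 15.1 RPM of Stat5b at 8 h and 16.9 at 13 h over IgG of 4.17 and 3.99. Its ratio of 1.12 had an interval of 0.866 to 1.45, so no change was detectable there and a rise of up to 1.45-fold is within counting error. Stat5a in that group was 24 RPM at 8 h and 14.4 at 13 h. The group chr3:87584852-87616077 went from 16.5 to 23.1 RPM, a ratio of 1.41 (1.11 to 1.78).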

How the data were processed

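The deposited files give, per the labels, mapped ChIP-seq reads and peaks of 1 library per antibody and stage, as positions in bp of mm8. The authors deposited 1 line per read, not normalized, and peaks with coordinates alone. How reads were aligned and peaks called is not given in the sources used here. Read length was 25 bp, but 49.7% of IgG reads at 13 h, 38.0% of Stat5a reads at 13 h and 77.3% of IgG reads after 2 rounds were 24 bp. The starts of these were moved by 1 bp, which for IgG was assumed by analogy with Stat5a at 13 h.

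From these positions, counts of read 5′ ends in the joined regions (overlap of 1 bp) were made, scaled to all mapped reads, also with each start and strand counted once. Ratios carry exact conditional intervals. A region with 0 reads was set at 3 counts for a bound. No p-value is given, as each group has 1 library. Calling was tested on simulated data. Members, lists and rules were chosen with earlier results of these data known. Named regions are the 10 with the most Stat5b above IgG at 13 h, up to 10 largest rises and falls among called regions with at least 30 reads in the higher library, and, of the 100 regions with the most Stat5a above IgG, the 5 lowest and 5 highest ratios. Regions at the calling limit, the falls on distinct starts, IgG-high regions, groups of regions and the sums over each Stat5a list were added after the data were seen. The work was done in Python 3.11.15 with scipy 1.17.1, numpy 2.4.6 and pandas 2.3.3, and plotted with matplotlib 3.10.9.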

Additional observations from a re-analysis of the deposited data

Results flagged for a closer look

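The 13 h over 8 h comparison of single regions had a median log2 ratio of 0.93 for Stat5b and of -0.20 for Stat5a. It is given here because the values of the 2 antibodies lie on opposite sides of 0, and the difference was not tested, each value resting on 1 library per time. The medians cover the regions with reads at both times, 33847 for Stat5b and 29268 for Stat5a. Stat5a at 8 h, with 3130228 reads, had 0 reads in 13344 of the 43766 regions, and over all of them 56.0% had a Stat5a ratio above 1, with a median level of 0.639 RPM at 8 h and 1.08 at 13 h. The Stat5a direction thus depends on which regions are counted.

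Reads on the mitochondrial chromosome, which the comparisons leave out, made up 0.0627% of Stat5b reads at 8 h and 0.0497% at 13 h. Both are given because they are above the share in the IgG library of the stage, which was 0.0292% at 8 h and 0.0241% at 13 h.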

How the results depend on the processing

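Setting the median ratio to 1 gave 153 regions higher, 728 lower and a median log2 ratio of 0.00 by construction. Counting each start once gave 495, 3 and 0.84, and a summed ratio of 1.83 in place of 1.29. Regions in at least 2 lists gave 3 lower, a median of 1.17 and a summed ratio of 2.10. The 3 Stat5a lists gave 1209, 14, 1.02 and 2.00, and the Stat5a 2-round list alone, added after the data were seen, 885, 2, 1.19 and 2.14. Both have fewer regions, 22140 and 9556. A 3-fold rule gave 460 higher and 34 lower. Moving reads by 75 bp gave 45 lower and 1.98, thinning the 13 h library to the 8 h depth 64 lower and a median of 1, and subtracting IgG a median of 1.13 and a summed ratio of 2.28. Scaling by reads outside regions gave 1.32. Leaving out heaps gave 1.96, and leaving out IgG-high regions too, added after the data were seen, 2.05. Taking the upper 50% of each list gave overlaps of 76.2% of 8 h and 20.2% of 13 h peaks, and 50% of both peaks 2.65% and 0.775%. Peaks of the Stat5a lists of 8 h, 13 h and 2 rounds with their own borders, without heaped and IgG-high ones and added after the data were seen, gave summed ratios of 2.27, 2.28 and 2.42. Where construction does not show it, the cause was not tested. Of the 36 named regions 28 had a call, and 16 kept it on distinct starts, 17 with the median ratio at 1 and 28 with reads outside regions. The 10 largest rises were chosen for a call on distinct starts too. No region with a call reversed under these. Among the uncalled, with the median ratio at 1, chr11:3091075-3094543 fell to 0.878 (0.793 to 0.972). The 5 lowest ratios of Stat5a-strong regions fell to between 0.601 and 0.749, while chr1:60990082-60991533 and chr9:107190761-107194586 stayed at 1.20 and 1.11. No paired analysis was possible because each group has 1 library, and for the same reason none could be left out. By the rule, regions with under 10 reads could not be called higher.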

Other observations

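The heap at chr7:125339709-125340091, a region in all 6 lists, held 566 Stat5b reads at 8 h and 1198 at 13 h, a ratio of 1.61 with an interval of 1.45 to 1.78. A single start and strand held 443 and 1178 of these reads, and the region had 11 and 12 distinct starts, a ratio of 0.978. IgG had 265 and 424 reads there, and Stat5a at 8 h 6287.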
